A study of Mus musculus with 6 samples.

Results

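Lysosomal genes were described in C2C12 cells, a mouse myoblast line, by RNA sequencing of control cells (n = 3) and of cells with forced expression of Msx1, a homeobox transcription factor that holds back muscle differentiation (n = 3). The set was named gene by gene and holds 45 of the 24809 genes of the deposited table, namely 11 cathepsins, 25 other hydrolases, activators and lipid handling proteins, 6 lysosomal membrane proteins and 3 transcription factors of the MiT family. The series addresses which transcripts differ when Msx1 is raised. Neither the vector that carried Msx1, the number of clones, nor the growth state at harvest is given in the labels, and the headings of the control columns name a vector. Whether the replicates are separate cultures is not said in the labels, and p-values then reflect just the spread between these libraries, which may be technical. Of the 45 genes, 42 averaged 0.5 FPKM or more over the 6 libraries and were tested; FPKM are fragment numbers scaled to transcript length and sequencing depth.

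Lysosomes are acidic compartments in which hydrolases digest proteins, glycans and lipids that arrive by endocytosis and autophagy. Most soluble hydrolases carry a mannose 6-phosphate tag that sorts them from the Golgi, a proton pump (the V-ATPase) acidifies the lumen, and heavily glycosylated membrane proteins line it. The MiT factors Tfeb, Tfe3 and Mitf activate many of these genes through sites with a CACGTG core, and nutrient signalling at the lysosomal surface keeps them in the cytosol. In muscle, loss of single members such as acid alpha-glucosidase or Lamp2 causes lysosomal storage myopathies.

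Promoter sequence around the CACGTG core, the known contact of the MiT factors, is shown first. The core lies near RefSeq start sites of genes that rose, fell or were not called. RefSeq windows of GRCm38.p6, from 250 bases before to 50 bases after a start site, matched 41 of the 45 genes with 49 windows. Ctsh, Asah1, Ctsb and Npc1 had no match. The hexamer CACGTG reads the same on both strands and lay in the windows of 13 genes (31.7% of the 41), against 8.09% of 27025 symbols with a window. The octamer TCACGTGA, which contains the hexamer and also reads the same on both strands, lay in 5 genes (12.2%, against 1.12% of symbols): Cln3, Ctsa, Ctsd, Gla and Mcoln1. Capitals mark the octamer where it is complete and otherwise the hexamer. In Ctsa and Gla the octamer was also recorded at a further position, and Ctsd, Cln3 and Mcoln1 have a further hexamer that is not shown. Arsa, Gaa and Glb1 carry the hexamer and are not shown. Cathepsin and heparan sulfate enzyme genes that rose are given first, then Lamp1 with 4 hexamers, then the uncalled Mcoln1 and Cln3, and then Gla, which fell.
Ctsa: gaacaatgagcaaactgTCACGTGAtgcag
Ctsd: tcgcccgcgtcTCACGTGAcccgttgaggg
Ctsf: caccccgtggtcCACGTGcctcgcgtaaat
Ctsl: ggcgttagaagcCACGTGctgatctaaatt
Naglu: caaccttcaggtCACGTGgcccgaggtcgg
Sgsh: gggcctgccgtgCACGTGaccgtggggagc
Lamp1: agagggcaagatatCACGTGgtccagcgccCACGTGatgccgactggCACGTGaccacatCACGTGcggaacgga
Mcoln1: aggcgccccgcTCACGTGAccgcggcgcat
Cln3: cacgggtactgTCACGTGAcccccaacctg
Gla: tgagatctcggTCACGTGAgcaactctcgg

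These stretches run 5′ to 3′ on the strand of the gene, and positions are counted back from a RefSeq start site of that gene. Those of the cathepsin genes are Ctsa -30 to -1 (chr2:164833743-164833772, + strand), Ctsd -110 to -81 (chr7:142387908-142387937, - strand), Ctsf -91 to -62 (chr19:4855074-4855103, + strand) and Ctsl -248 to -219 (chr13:64370739-64370768, - strand). The heparan sulfate enzyme genes are shown at Naglu -85 to -56 (chr11:101070009-101070038, + strand) and Sgsh -41 to -12 (chr11:119355522-119355551, - strand). The membrane protein genes are shown at Lamp1 -75 to -1 (chr8:13159086-13159160, + strand), Mcoln1 -57 to -28 (chr8:3500462-3500491, + strand) and Cln3 -133 to -104 (chr7:126583340-126583369, - strand). Gla is shown at -206 to -177 (chrX:134601182-134601211, - strand). By gene spans, the stretches of Ctsa, Ctsl and Cln3 lie inside the gene rather than before it. GENCODE places exons of the same gene within the stretches of Cln3, Ctsa, Ctsd, Ctsl, Mcoln1, Naglu and Sgsh, an exon of the neighbouring gene Hnrnph2 within that of Gla, and none within those of Ctsf and Lamp1. Of the 13 genes with the hexamer, 8 rose, 1 fell and 4 were not called, with a median log2 change of 0.23. Of the 25 tested genes whose windows lack it, 16 rose, 1 fell and 8 were not called, with a median of 0.27. Both groups thus held genes that moved in each direction. A match is a sequence description and does not show that a factor binds there.

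Library totals and the targeted gene set the frame for these values. Total FPKM lay between 409664 and 441835 in control and between 390439 and 401802 in Msx1 libraries, with rough depth estimates of 18.8 to 24.2 M fragments. Msx1 (chromosome 5, 37820491 to 37824585) stood at 7.99, 7.13 and 7.54 FPKM in control and 1004, 944 and 912 FPKM in Msx1 libraries (log2 change 6.80, SE 0.06, adjusted p = 1.02e-09; exact two-sided permutation p = 0.1, the smallest that 3 against 3 allows). Of 9 myoblast markers 3 were higher, 3 lower and 3 not called. Myod1, not called, stood at 24.2, 22.4 and 23.2 FPKM in control and 20.7, 21.6 and 22.0 FPKM in Msx1 libraries. Myf5 fell from 9.01 ± 0.396 to 1.64 ± 0.0968 FPKM, Des, encoding desmin, from 140.1 ± 0.668 to 116 ± 4.89 FPKM and Chrna1 from 23.3 ± 1.07 to 20.6 ± 0.701 FPKM (n = 3 each), the last not called under any of the 3 scalings given below. Myog, encoding myogenin, rose from 2.76 ± 0.469 to 5.74 ± 0.153 FPKM and Pax7 from 9.21 ± 0.573 to 11.4 ± 0.751 FPKM (n = 3 each; adjusted p = 1.71e-04 and 0.0114). Cav3, the other marker called higher, reached the minimum for testing through the Msx1 libraries alone. Cdh15 and Itga7 were not called. Of 20 markers of macrophages and osteoclasts, cells rich in lysosomal enzymes, 6 were listed at 0 in the 6 libraries, among them Ptprc, Adgre1 and Tyrobp, and Cd14 and Lyz2 alone reached 1 FPKM. The other 18 summed to 0.444 to 1.16 FPKM per control and 0.85 to 1.17 FPKM per Msx1 library. Cd68, also used as a macrophage marker, was listed with the lysosomal membrane genes and not among the 20. It fell from 3.00 ± 0.366 to 1.05 ± 0.114 FPKM (n = 3 each). Cd14 fell from 18.8 ± 1.24 to 11.8 ± 0.838 FPKM and Lyz2, encoding lysozyme, rose from 10.3 ± 0.985 to 22.3 ± 2.22 FPKM (n = 3 each); their part in the lysosomal values was not tested. In such bulk RNA a change in the share of a cell type and a change in RNA per cell cannot be told apart.

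Transcripts of the lysosomal genes in this set were mostly higher in Msx1 cells. The set was chosen with earlier results of these data known, so its shares beside those of all genes are a description only. Of the 42 tested genes 27 rose (64.3%), 2 fell (4.76%) and 13 were not called, with limma at a Benjamini-Hochberg adjusted p under 0.05. Each of the 42 reached 0.5 FPKM on average in both groups. Of all 12371 genes tested, 22% rose and 32.4% fell, so that 54.4% were called in either direction. The median log2(FPKM + 1) change, Msx1 overexpression minus control, was 0.28 over the 42 genes and -0.07 over all genes tested. Groups did not overlap for 28 of the 42 with Msx1 higher (25.5% of all genes) and for 2 with Msx1 lower (36.8%). Called increases of 0.5 log2 units or more were found in 14 of the 42 (9.85% of all genes). When the set was restricted to the 29 genes that averaged 20 FPKM or more, 20 rose and 1 fell, against 23.2% and 38.4% of 3995 genes at such levels. The scale matters for small changes: equal library totals without Msx1 shifted the median of all genes by 0.10, to 0.03, and then 31 of the 42 were higher and 1 lower. Median-of-ratios scaling gave 29 higher and 2 lower, quantile normalization 28 and 2, and all 8 tested cathepsins were higher under the 3 scalings. Of all genes, 26.9% were then higher and 25.5% lower with median-of-ratios scaling, 24.9% and 29.2% with quantile normalization, and 28.3% and 22.7% with equal totals.

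**Figure D1:**
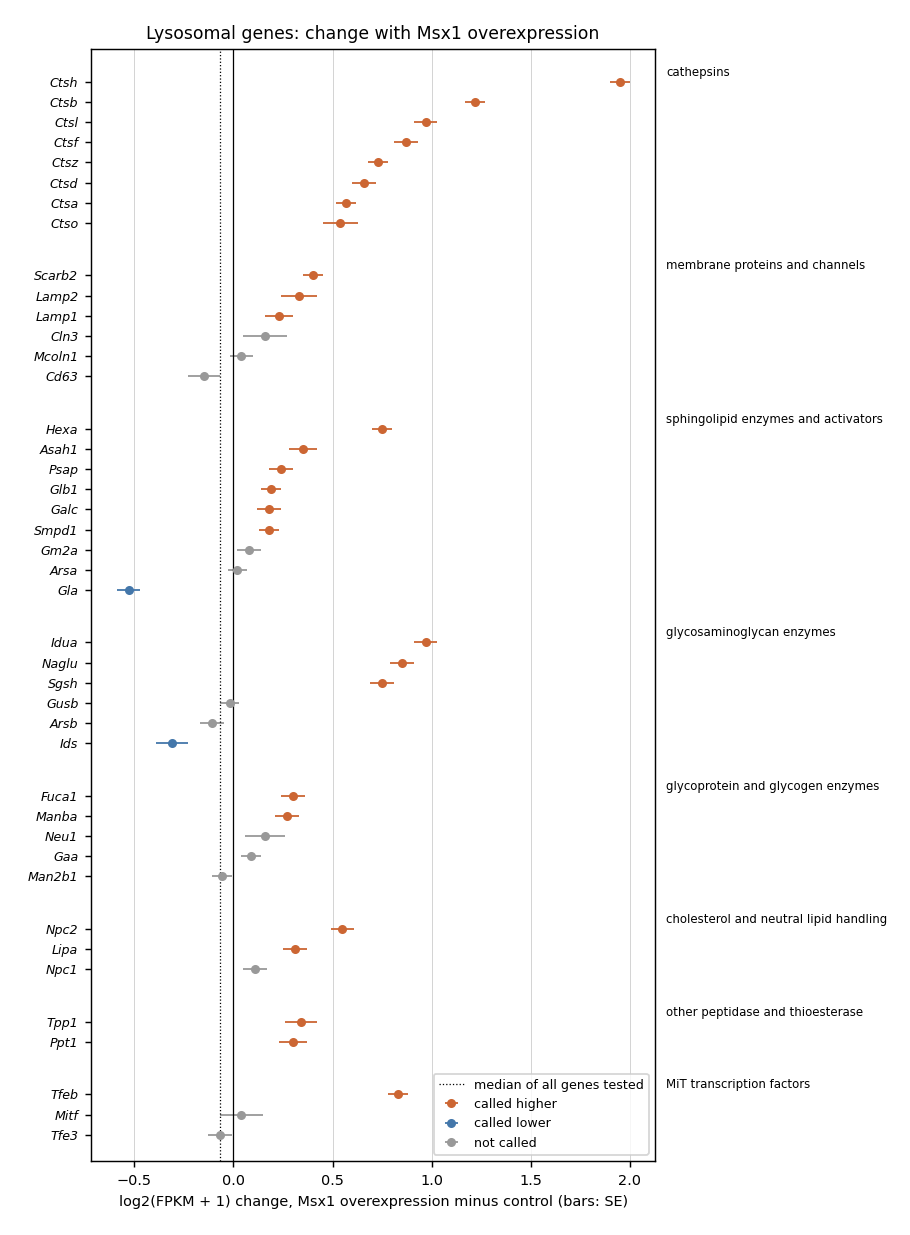
Change of each tested lysosomal gene, as log2(FPKM + 1) in Msx1 overexpression minus control on the horizontal axis, with bars for the moderated SE and genes grouped by role (n = 3 per group). Orange points were called higher, blue lower and grey not called, and the dotted line is the median of all genes tested (-0.07); Ctsh lies farthest to the right at 1.95 and Gla farthest to the left at -0.53.

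Summed over the 45 genes, FPKM were 4452, 4276 and 4426 in control and 5491, 5569 and 5791.5 in Msx1 libraries, 1.28-fold higher. The sum was 1.01, 1.04 and 1.04% of all FPKM in control and 1.40, 1.43 and 1.44% in Msx1 libraries. Cathepsins made up most of that difference, with sums of 1051, 1052 and 1079 FPKM in control and 1883.5, 1894 and 1983 FPKM in Msx1 libraries (1.81-fold), while the other 34 genes together were 1.11-fold higher, or 1.23-fold without Cd63, the most abundant of them. Cd63, Ctsd, Psap, Lamp1 and Ctsb held 63.0% of the sum in control and 59.7% in Msx1 libraries. No test was applied to these sums.

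**Figure D2:**
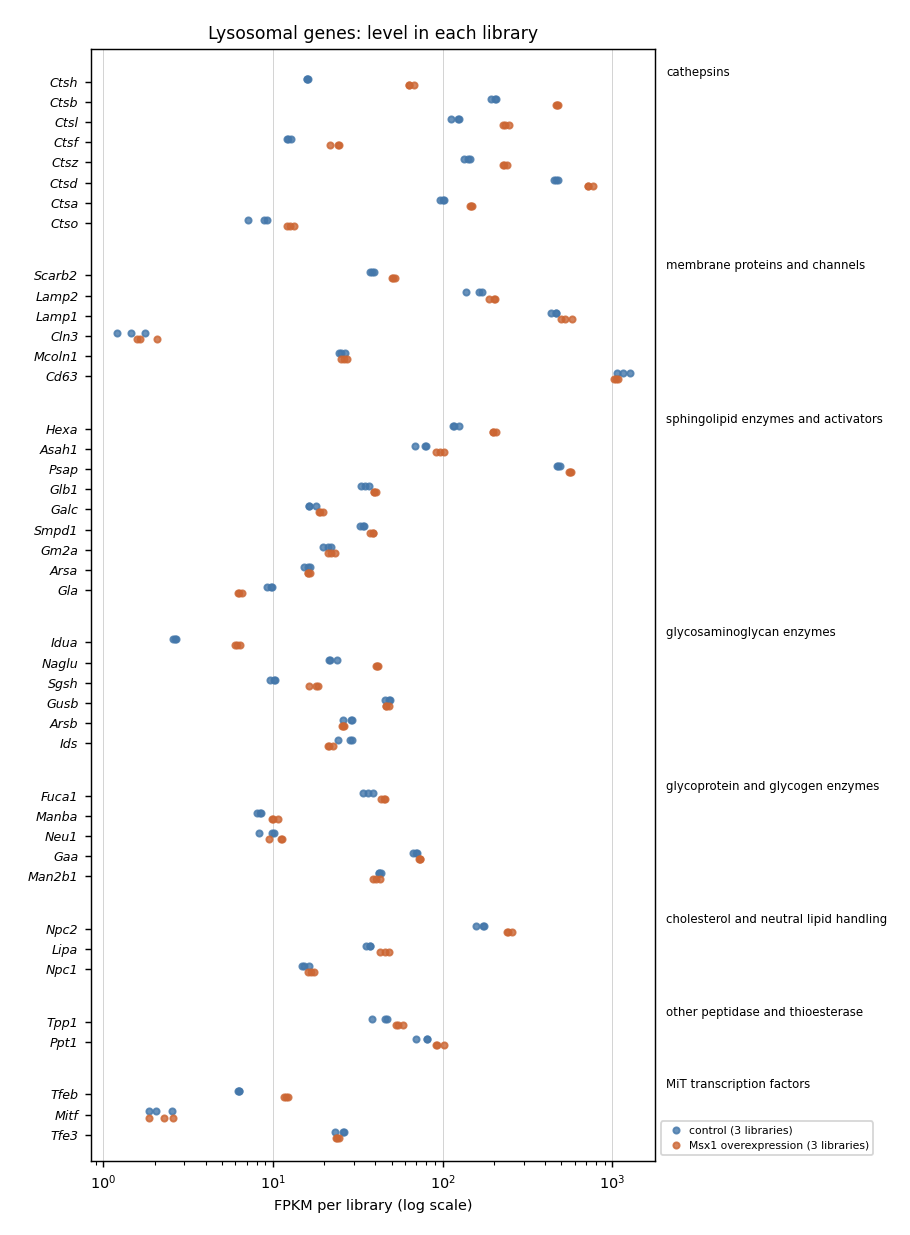
Level of each tested lysosomal gene in every library, with FPKM on a logarithmic axis and genes grouped by role; each point is 1 library, blue for control and orange for Msx1 overexpression. The 8 cathepsins show no overlap between groups, and Cd63, between 1016 and 1262 FPKM, is the highest gene in each library.

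Each of the 8 tested cathepsin genes rose, and no group overlapped. Cathepsins B, H, L, F, O and Z are cysteine proteases, cathepsin D is an aspartic protease, and cathepsin A is a serine carboxypeptidase that also protects neuraminidase and beta-galactosidase in a complex. The largest increase of the set was in Ctsh (chromosome 9, 90054267 to 90076095), whose product is mainly an aminopeptidase, with 16.0, 15.9 and 15.9 FPKM in control and 62.9, 63.1 and 67.3 FPKM in Msx1 libraries (4.04-fold; log2 change 1.95, SE 0.05, adjusted p = 6.52e-08). Control values of Ctsh differed by little, and each Msx1 library stood far above them. Ctsb (chromosome 14, 63122462 to 63145923), encoding an endopeptidase and dipeptidase, stood at 194, 207 and 202 FPKM in control and 464, 469 and 479 FPKM in Msx1 libraries (2.34-fold; log2 change 1.22, SE 0.05, adjusted p = 1.10e-06). Ctsl, the broad endopeptidase of endosomes and lysosomes, was at 112, 124 and 122 FPKM in control and 227, 232 and 245 FPKM in Msx1 libraries (1.96-fold; log2 change 0.97, SE 0.06, adjusted p = 6.31e-06). Ctsh and Ctsb passed a rise of 1 on the log2 scale, a size that a called rise reached for 4.17% of all genes, and Ctsl lay just under it.

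The remaining cathepsins rose by smaller factors. Ctsf was at 12.8, 12.1 and 12.2 FPKM in control and 21.7, 24.5 and 24.0 FPKM in Msx1 libraries (1.90-fold; log2 change 0.87), a range that again left a gap between groups. Ctsz, a carboxypeptidase, read 146, 133 and 140.4 FPKM in control and 231, 227 and 238 FPKM in Msx1 libraries (1.66-fold; log2 change 0.73). Ctsd, the most abundant cathepsin gene per length, was at 468, 450.5 and 476 FPKM in control and 719.7, 719 and 767 FPKM in Msx1 libraries (1.58-fold; log2 change 0.66). Its lowest Msx1 library lay well above its highest control library. Ctsa stood at 95.9, 100.3 and 101 FPKM in control and 145, 146 and 149.7 FPKM in Msx1 libraries (1.48-fold; log2 change 0.57), and Ctso at 7.13, 8.79 and 9.25 FPKM in control and 12.1, 12.6 and 13.2 FPKM in Msx1 libraries (log2 change 0.54), with control replicate 1 lowest. Adjusted p for these 5 lay between 1.16e-05 and 0.00157. Exons of Ctsa overlap those of Pltp and Neurl2 on the opposite strand, and these were higher (log2 change 1.06) and lower (-0.52). Exons of Ctsb overlap Fdft1, which was lower (-0.54). In all, 16 of the 45 genes overlap another gene in exons. For 14 of them, Idua and Npc1 included, such overlap is on the opposite strand. Reads from such overlaps cannot be told apart without strand, and their part in the values was not tested.

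Ctsk, Ctss and Ctsc, cathepsins of osteoclasts and immune cells, were below the minimum for testing. Ctss stood between 0.259 and 0.469 FPKM, Ctsk between 0.0272 and 0.149 FPKM and Ctsc between 0 and 0.0296 FPKM over the 6 libraries. The 8 tested cathepsins had means from 8.39 to 465 FPKM in control. Of 3 genes for cystatins, small inhibitors of cysteine cathepsins, 1 rose, 1 fell and 1 was not called. Cst3, encoding secreted cystatin C, rose from 664 ± 50.3 to 840.2 ± 28.7 FPKM (adjusted p = 0.00647), Cst6 fell from 2.59 ± 0.380 to 1.86 ± 0.0803 FPKM (adjusted p = 0.0167, 0.0582 without Msx1 replicate 1), and the cytosolic inhibitor gene Cstb was not called at 244 ± 24.3 and 226 ± 21.4 FPKM (n = 3 each).

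Of 6 enzymes of glycosaminoglycan breakdown 3 rose, 1 fell and 2 were not called, with a median log2 change of 0.36. Idua, the iduronidase of heparan and dermatan sulfate, was at 2.58, 2.69 and 2.65 FPKM in control and 6.35, 6.08 and 5.94 FPKM in Msx1 libraries (2.32-fold; log2 change 0.97, SE 0.06, adjusted p = 6.33e-06). Naglu, the N-acetylglucosaminidase of heparan sulfate, read 23.9, 21.5 and 21.6 FPKM in control and 41.7, 40.4 and 40.9 FPKM in Msx1 libraries (1.83-fold; log2 change 0.85, SE 0.06, adjusted p = 8.52e-06). Sgsh, the sulfamidase, stood at 10.1, 9.58 and 10.2 FPKM in control and 18.3, 16.2 and 17.9 FPKM in Msx1 libraries (1.75-fold; log2 change 0.75, SE 0.06, adjusted p = 3.20e-05). All 3 were higher in each Msx1 library than in any control library. Ids, the iduronate sulfatase that acts just before Idua, went the other way, with 24.0, 29.1 and 28.2 FPKM in control and 20.9, 22.7 and 21.4 FPKM in Msx1 libraries (log2 change -0.31, SE 0.08, adjusted p = 0.0112). The Ids call was lost with equal totals without Msx1 (log2 change -0.20, adjusted p = 0.122). Gusb, the beta-glucuronidase, was not called at 49.0, 45.5 and 48.4 FPKM in control and 46.0, 46.3 and 48.0 FPKM in Msx1 libraries, where the groups overlapped. Arsb, which removes sulfate from dermatan and chondroitin sulfate, stood at 26.0, 29.0 and 29.3 FPKM in control and 25.6, 26.1 and 25.8 FPKM in Msx1 libraries. It was not called (adjusted p = 0.137), but was lower without control replicate 1 (log2 change -0.17, adjusted p = 0.0119). The main call was kept in 15 of 17 refits, and the lowest adjusted p over the refits was 0.00217.

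Of 9 genes for sphingolipid breakdown 6 rose, 1 fell and 2 were not called. Hexa, the alpha subunit of the hexosaminidase that degrades GM2 ganglioside, stood apart with 125, 115 and 116 FPKM in control and 197, 198 and 206 FPKM in Msx1 libraries (1.69-fold; log2 change 0.75, SE 0.05, adjusted p = 1.37e-05). Asah1, the acid ceramidase, was at 69.1, 78.2 and 80.1 FPKM in control and 91.7, 96.7 and 101 FPKM in Msx1 libraries (1.27-fold; log2 change 0.35, adjusted p = 0.00379). Psap, the precursor of the saposin activators, read 479, 488 and 471 FPKM in control and 573, 557 and 566 FPKM in Msx1 libraries (1.18-fold; log2 change 0.24, adjusted p = 0.00856). The 3 other increases were small, from 0.18 to 0.19 on the log2 scale. Glb1, the beta-galactosidase, was at 34.6, 33.0 and 36.6 FPKM in control and 39.5, 40.4 and 39.5 FPKM in Msx1 libraries, and its call was lost without Msx1 replicate 1 or 2 (adjusted p = 0.0504 and 0.0651). Smpd1, the acid sphingomyelinase, stood at 34.4, 34.0 and 32.7 FPKM in control and 39.0, 37.5 and 38.6 FPKM in Msx1 libraries, with the call lost without control replicate 3 or Msx1 replicate 1 (adjusted p = 0.0504 and 0.0561). Galc, which cleaves galactosylceramide, read 16.2, 16.2 and 18.0 FPKM in control and 18.8, 18.9 and 19.8 FPKM in Msx1 libraries (adjusted p = 0.0335). The Galc call was lost in 6 of 17 refits, namely without any 1 of the 3 Msx1 libraries, without control replicate 1 or 2, and with array weights, with adjusted p from 0.0579 to 0.11 in these. The Psap call was lost without Msx1 replicate 1 (adjusted p = 0.0522).

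Gla, the alpha-galactosidase that is deficient in Fabry disease (chromosome X, 134588169 to 134601005), fell. It stood at 9.73, 9.22 and 9.79 FPKM in control and 6.19, 6.26 and 6.53 FPKM in Msx1 libraries (ratio of means 0.661; log2 change -0.53, SE 0.06, adjusted p = 1.32e-04), and the groups did not overlap. The fall kept its direction and call in the 17 refits, with log2 changes from -0.59 to -0.43. Gm2a, the GM2 activator, at 21.0, 21.9 and 19.7 FPKM in control and 22.0, 21.1 and 23.3 FPKM in Msx1 libraries, and Arsa, the arylsulfatase of sulfatide, at 15.1, 16.5 and 16.1 FPKM in control and 16.4, 16.1 and 16.0 FPKM in Msx1 libraries, overlapped between groups and were not called. Gm2a was called higher with equal totals without Msx1 (log2 change 0.19, adjusted p = 0.0463) and with array weights.

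Of 5 genes for glycoprotein and glycogen breakdown 2 rose and 3 were not called, with a median log2 change of 0.16. Fuca1, the fucosidase, rose to 44.9 ± 1.28 from 36.4 ± 2.51 FPKM (1.23-fold; log2 change 0.30, adjusted p = 0.00417), and Manba, the beta-mannosidase, to 10.2 ± 0.415 from 8.28 ± 0.207 FPKM (1.23-fold; log2 change 0.27, adjusted p = 0.00493; n = 3 each). Gaa, the acid alpha-glucosidase that degrades glycogen, stood at 67.1, 70.5 and 69.3 FPKM in control and 73.6, 72.8 and 73.7 FPKM in Msx1 libraries. Its groups did not overlap, yet it was not called (log2 change 0.09, adjusted p = 0.134), while each of the 3 scalings called it higher (adjusted p from 0.0168 to 0.0411). The main call of Gaa was kept in 13 of 17 refits. Neu1, the sialidase, was at 10.2, 8.21 and 9.81 FPKM in control and 9.44, 11.1 and 11.2 FPKM in Msx1 libraries and not called (adjusted p = 0.196), although equal totals without Msx1 called it higher (adjusted p = 0.0342). Man2b1, the alpha-mannosidase, read 42.1, 43.1 and 42.2 FPKM in control and 42.9, 40.3 and 38.8 FPKM in Msx1 libraries, with overlap between groups and no call.

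Of 3 genes for cholesterol and neutral lipid handling 2 rose and 1 was not called. Npc2, the soluble carrier that takes up cholesterol in the lumen, stood at 173, 158 and 174 FPKM in control and 239, 244 and 258 FPKM in Msx1 libraries (1.47-fold; log2 change 0.55, SE 0.06, adjusted p = 1.69e-04). Its membrane partner Npc1, at 14.8, 15.2 and 16.2 FPKM in control and 16.8, 17.3 and 16.1 FPKM in Msx1 libraries, was not called (log2 change 0.11, adjusted p = 0.128), but median-of-ratios scaling and equal totals without Msx1 called it higher (adjusted p = 0.0235 and 0.0278). Lipa, the acid lipase that hydrolyses cholesteryl esters and triglycerides, was at 35.3, 37.2 and 37.2 FPKM in control and 45.5, 42.7 and 48.1 FPKM in Msx1 libraries (1.24-fold; log2 change 0.31, adjusted p = 0.00277). Tpp1, a tripeptidyl peptidase, and Ppt1, a palmitoyl thioesterase, are both mutated in neuronal ceroid lipofuscinosis. Tpp1 stood at 38.4, 46.7 and 45.4 FPKM in control and 52.9, 54.4 and 58.3 FPKM in Msx1 libraries (rise of 0.34 on the log2 scale, adjusted p = 0.00819). Ppt1 read 69.8, 80.9 and 81.0 FPKM in control and 91.8, 93.0 and 101 FPKM in Msx1 libraries (rise of 0.30, adjusted p = 0.00904). In both, control replicate 1 was the lowest library, and no control library reached the Msx1 range. Exons of Ppt1 overlap the opposite-strand gene Cap1, which went from 167 ± 49.9 to 119.7 ± 4.01 FPKM and was not called.

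Of 6 genes for membrane proteins and channels 3 rose, 0 fell and 3 were not called, with a median log2 change of 0.20. Scarb2, the receptor that carries glucocerebrosidase to lysosomes, was at 37.1, 39.6 and 38.5 FPKM in control and 52.5, 50.8 and 50.1 FPKM in Msx1 libraries (1.33-fold; log2 change 0.40, SE 0.05, adjusted p = 2.48e-04). Lamp2 stood at 138, 171 and 164 FPKM in control and 187, 203 and 202 FPKM in Msx1 libraries (1.25-fold; log2 change 0.33, adjusted p = 0.0137), and the call was lost without Msx1 replicate 2 (adjusted p = 0.0508). Lamp1 was at 465, 436 and 462 FPKM in control and 499.9, 525 and 578 FPKM in Msx1 libraries (1.18-fold; log2 change 0.23, adjusted p = 0.0282), and its call was lost without control replicate 2 or 3, without Msx1 replicate 2 or 3 and with no filter (adjusted p from 0.0554 to 0.0997). Cd63, a tetraspanin of late endosomes and exosomes, read 1262, 1067 and 1159.5 FPKM in control and 1016, 1049 and 1074 FPKM in Msx1 libraries and was not called (log2 change -0.15, adjusted p = 0.167). It was lower without control replicate 2 (log2 change -0.21, adjusted p = 0.0393) and with array weights (adjusted p = 0.0163), and its change was 0.06 after quantile normalization. Mcoln1, the calcium release channel mucolipin 1, at 25.2, 24.5 and 26.7 FPKM in control and 25.2, 26.0 and 27.4 FPKM in Msx1 libraries, and Cln3, at 1.45, 1.75 and 1.20 FPKM in control and 1.64, 1.57 and 2.06 FPKM in Msx1 libraries, overlapped between groups and were not called. With array weights Cln3 was called higher (adjusted p = 0.0128).

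Of the 3 MiT factors 1 rose and 2 were not called; the difference between them was not tested. Tfeb (chromosome 17, 47737037 to 47792416) rose, with 6.23, 6.31 and 6.27 FPKM in control and 12.2, 11.9 and 11.6 FPKM in Msx1 libraries (1.90-fold; log2 change 0.83, SE 0.05, adjusted p = 7.10e-06). The control libraries were nearly equal, and each Msx1 library lay far above them. Tfe3, the most abundant of the 3 per length, stood at 26.3, 23.3 and 25.7 FPKM in control and 23.5, 24.4 and 23.6 FPKM in Msx1 libraries, with overlap between groups and no call (log2 change -0.07, adjusted p = 0.353). It was lower with array weights (adjusted p = 0.0411), and its change was 0.01 after median-of-ratios scaling. Mitf was low, at 1.87, 2.55 and 2.03 FPKM in control and 1.85, 2.56 and 2.27 FPKM in Msx1 libraries, and was not called (log2 change 0.04, adjusted p = 0.808). Transcript levels do not show where the factors were in the cell.

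The 45 genes have 79 RefSeq transcripts in the table, and 28 genes have 1 each. Of the 79, 60 reached the minimum, and with transcripts tested one by one 25 were higher and 2 lower, against 13.6% and 18.6% of 17764 transcripts. Without Msx1 replicate 3, 15 were higher; without Msx1 replicate 1 or 2, or control replicate 2, 1 was lower, and without control replicate 1, 3 were. NM_001161722 of Tfeb, at 5.69, 5.97 and 6.02 FPKM in control and 12.1, 11.1 and 11.5 FPKM in Msx1 libraries, carried 94.0% of the Tfeb level in control and 97.1% in Msx1 cells and rose (log2 change 0.87, SE 0.06, adjusted p = 2.51e-04). Lamp2 was spread over NM_010685 (60.6% of the gene in control and 62.0% in Msx1) and NM_001017959 (36.7% and 33.8%). Neither was called by itself (adjusted p = 0.057 and 0.134), and the low, non-coding NR_152733 was higher (log2 change 0.93, adjusted p = 0.0161). NM_001105197 of Tfe3, at 0.144, 0.196 and 0 FPKM in control and 1.27, 0.797 and 1.00 FPKM in Msx1 libraries, reached the minimum through the Msx1 libraries alone, and its difference is given without a test. Of the 56 transcripts at the minimum in both groups, 24 were higher and 2 lower.

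The division of Psap among its transcripts varied between libraries more than the gene's summed level. NM_001146120 held 30.3, 34.7 and 38.8% of the gene in control and 84.2, 33.0 and 32.2% in Msx1 libraries. NM_001146123 held 40.5, 36.5 and 28.0% in control and 2.62, 38.3 and 39.9% in Msx1 libraries. Msx1 replicate 1 therefore stood alone in both, while its summed Psap level of 573 FPKM lay near the 557 and 566 FPKM of the other two. These shares are estimates by the authors' software for transcripts that share most of their sequence.

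**Figure D3:**
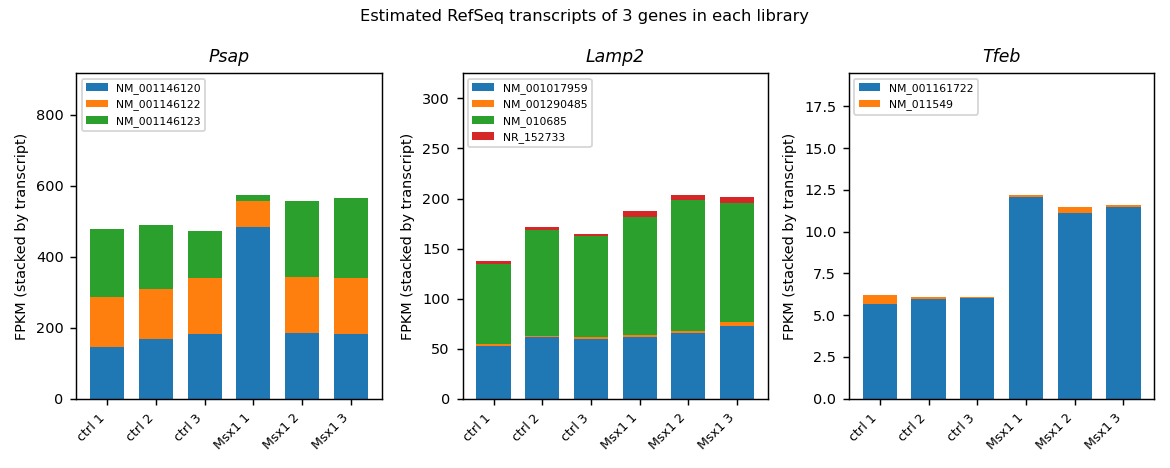
FPKM of Psap, Lamp2 and Tfeb in each library, with bars starting at 0 and stacked by RefSeq transcript (transcripts that reach 0.5 FPKM in a library). Msx1 replicate 1 divides Psap differently from the other libraries at a similar total, and NM_001161722 carries most of Tfeb in the 6 libraries.

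Further lysosomal genes outside the set moved in both directions. Of 25 tested other lysosomal enzymes 10 rose (40%), 5 fell (20%) and 10 were not called, with a median log2 change of 0.05. Of all genes tested, 22% rose and 32.4% fell. Cpq, a carboxypeptidase, rose from 42.7 ± 3.33 to 138 ± 5.20 FPKM (3.24-fold; log2 change 1.67), and Dpp7, a dipeptidyl peptidase, from 19.0 ± 0.838 to 34.2 ± 0.917 FPKM (1.80-fold; n = 3 each). Of 24 other membrane genes 9 rose (37.5%) and 5 fell (20.8%), with a median of 0.12. Counts were 12 and 4 after median-of-ratios scaling, 10 and 5 after quantile normalization, and 12 and 3 with equal totals without Msx1. The cation channel gene Tpcn1 rose from 14.4 ± 0.139 to 32.6 ± 0.0328 FPKM (2.27-fold), the cystine exporter gene Ctns from 13.9 ± 0.524 to 29.1 ± 0.867 FPKM (2.09-fold) and the lipid transporter gene Abca2 from 7.36 ± 0.149 to 15.3 ± 0.151 FPKM (2.08-fold). Adjusted p for these 5 lay between 5.70e-07 and 7.56e-06. Among the enzymes, the fall with the smallest adjusted p was that of Lgmn, encoding legumain. It went from 89.4 ± 4.03 to 66.5 ± 3.58 FPKM (n = 3 each; log2 change -0.42, adjusted p = 5.92e-04). Among the membrane genes it was that of Cd68, given above (log2 change -0.96, adjusted p = 6.1e-05).

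Of 21 tested V-ATPase subunits 10 rose (47.6%) and 2 fell (9.52%), against 22% and 32.4% of all genes tested, with a median of 0.19. Under the 3 scalings in the order above, counts were 13 and 1, 13 and 2, and 14 and 1. Without Msx1 replicate 1 or 2, 1 was lower. Atp6v0e2, an isoform of a small membrane subunit, rose from 2.98 ± 0.527 to 24.5 ± 0.573 FPKM (8.21-fold; log2 change 2.69, adjusted p = 2.86e-07). The accessory subunit gene Atp6ap2 rose from 39.2 ± 3.13 to 63.1 ± 4.32 FPKM (1.61-fold; n = 3 each). Of the called subunits, Atp6v0a4 (from 0.0884 ± 0.0274 to 1.19 ± 0.243 FPKM) and Atp6v0d2 (from 1.10 ± 0.247 to 0.342 ± 0.146 FPKM) reached the minimum through 1 group alone, so their calls support nothing, and 9 higher and 1 lower of 19 are left without them. Among 24 sorting genes 5 rose (20.8%) and 8 fell (33.3%), shares near the 22% and 32.4% of all genes tested, with a median of -0.09 (5 and 5, 5 and 6, and 6 and 2 under the 3 scalings; 3 higher without control replicate 2). The adaptor subunit genes Ap1s1 and Ap3s1 fell from 89.4 ± 11.7 to 55.6 ± 3.02 FPKM and from 66.9 ± 1.65 to 46.9 ± 2.55 FPKM, and the endocytic receptor gene Lrp1 rose from 177 ± 16.8 to 256 ± 15.6 FPKM (n = 3 each).

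Genes of nutrient sensing at the lysosome, which control the MiT factors, mostly were not called, with 5 of 20 higher (25%, near the 22% of all genes tested), 1 lower (5%, against 32.4%) and a median of 0.06. Under the 3 scalings 7, 7 and 8 were higher and 0 lower, against 26.9%, 24.9% and 28.3% of all genes higher. Without control replicate 1, Msx1 replicate 1 or Msx1 replicate 2, 3 were higher, and without Msx1 replicate 3, 2 were. The count of 1 lower was 0 without control replicate 3 or Msx1 replicate 1 or 2. Flcn, encoding folliculin, which acts on the Rag GTPases, rose from 19.4 ± 0.878 to 31.1 ± 0.292 FPKM (1.61-fold; log2 change 0.66, adjusted p = 2.13e-05), and its partner Fnip2 from 4.26 ± 0.192 to 6.03 ± 0.0312 FPKM (1.42-fold; adjusted p = 6.29e-04; n = 3 each). Lamtor3, a subunit of the Ragulator scaffold, rose from 35.2 ± 0.966 to 39.8 ± 1.10 FPKM (adjusted p = 0.0167), a call lost without Msx1 replicate 2 or 3 (adjusted p = 0.0504 and 0.0659).

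Of 30 autophagy genes 10 rose (33.3%), 3 fell (10%) and 17 were not called, against 22% and 32.4% of all genes tested that rose and fell. The median was 0.03. Counts were 13 and 1 under median-of-ratios and under quantile scaling, and 12 and 1 with equal totals. The count of lower genes was 5 without control replicate 1 and 1 without control replicate 3 or any 1 Msx1 library. The LC3 genes Map1lc3a and Map1lc3b, whose products coat autophagosomes, rose from 76.2 ± 5.65 to 136 ± 3.59 FPKM (1.79-fold) and from 98.2 ± 2.46 to 145 ± 1.98 FPKM (1.48-fold). Plekhm1, an adaptor for fusion of autophagosomes with lysosomes, rose from 12.4 ± 0.196 to 17.2 ± 0.224 FPKM (1.39-fold; n = 3 each), and adjusted p for these 3 lay between 1.87e-05 and 1.47e-04. The difference between the lysosomal genes and any of these lists was not tested.

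**Figure D4:**
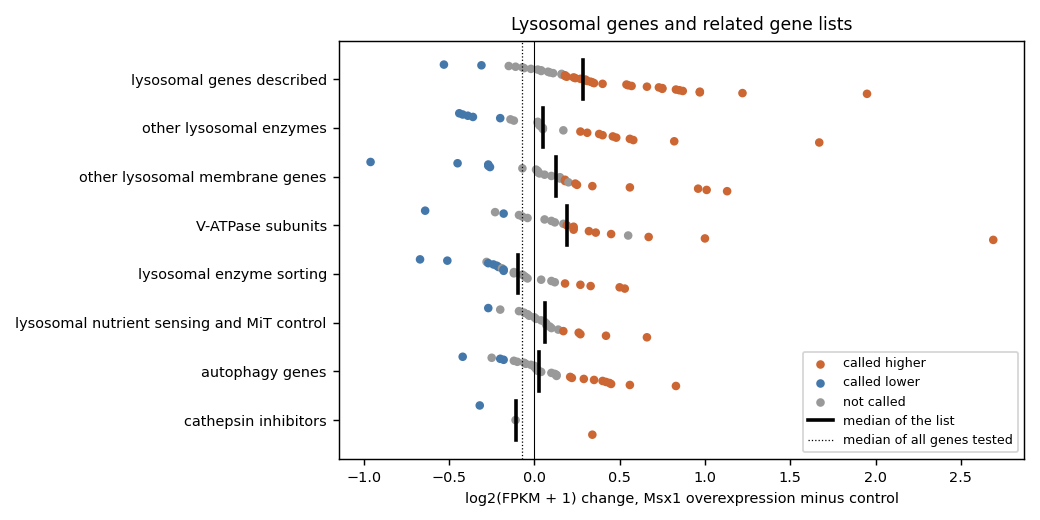
Change of each tested gene, as log2(FPKM + 1) in Msx1 overexpression minus control, in the lysosomal set and 7 related lists; each point is 1 gene (vertical spread is for display), black bars are list medians and the dotted line is the median of all genes tested (-0.07). The median of the lysosomal set lies at 0.28 and those of the related lists between -0.11 and 0.19.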

How the data were processed

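RNA was sequenced from 3 control and 3 Msx1 overexpressing C2C12 samples. The authors deposited FPKM per RefSeq transcript, and the submitters' processing notes name Trimmomatic, HISAT2 and StringTie with GRCm38/mm10; for versions, settings and strand the sources used here give nothing. Control columns, headed as vector, were matched to control samples by number. Of 38468 transcripts 38193 were named from RefSeq and 156 from GENCODE, and FPKM were summed to 24809 genes.

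Genes averaging 0.5 FPKM or more were tested as log2(FPKM + 1) with limma 3.58.1 in R 4.3.3 (trended prior variance, Benjamini-Hochberg adjustment over 12371 genes). Fold changes on this scale understate changes of low genes; folds given as such are ratios of mean FPKM. The fit was tested on simulated data in which few genes changed. That test does not cover data in which 54.4% of genes were called. Depth was estimated roughly from the steps of low values, as the depth from 12 to 35 M that put most of them near whole reads (within 0.1). That share was 38.4 to 42.8%. By chance a depth fixed beforehand would give 20%, which is not the chance level of such a maximum. The estimate is therefore rough, and no count test was run.

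All 45 genes are named, and 3 genes of each related list by smallest adjusted p (1 of them is not reported here), with values in each library for changes of at least 0.5, the 5 highest genes, the MiT factors and calls that changed in a refit. Cap1, Pltp, Neurl2 and Fdft1 were added as exon neighbours, and Atp6v0d2, Cd68 and Lgmn were named after their values were seen. Members and lists were chosen with earlier results of these data known. The 17 refits varied pseudocount, filter, scaling, transcript choice, weights, prior, block and libraries.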

Additional observations from a re-analysis of the deposited data

How the results depend on the processing

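Of the 42 tested genes, 27 kept their call in each of the 17 refits that could test them (21 higher, 1 lower and 5 not called); a minimum of 5 FPKM tested 39. The count of 27 higher ranged from 23 to 31 over the refits. The count of 2 lower was 1 with equal totals without Msx1 and 5 with array weights. Array weights called more of all genes, with 28.4% higher and 42.5% lower against 22% and 32.4% in the main fit. Leaving out 1 library gave 23 to 26 higher and 2 to 3 lower, a median change of 0.24 to 0.29 and a summed fold of 1.26 to 1.30. The median change of 0.28 was 0.35 with median-of-ratios scaling, 0.36 with quantile normalization and 0.39 with equal totals, and the summed fold of 1.28 was 1.35, 1.41 and 1.39. Over all genes, 40.4% of calls were higher as deposited, against 51.3, 46.0 and 55.5% under these scalings. The cause of these changes was not tested.

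In the related lists, other membrane genes had 3 lower with equal totals and 3 with the most abundant transcript. V-ATPase subunits had 1 lower with a minimum of 5 FPKM, median-of-ratios scaling or equal totals, and 1 to 2 with 1 library left out. Sorting genes had 5 lower with median-of-ratios scaling, 2 with equal totals and 14 with array weights. They had 3 to 5 higher with 1 library left out. Of all genes, 25.5% were lower with median-of-ratios scaling, 22.7% with equal totals and 42.5% with array weights, against 32.4% in the main fit. Nutrient sensing genes had 8 higher with equal totals, 0 lower with no filter, any of the 3 scalings, the most abundant transcript or the replicate block, 2 lower with array weights, and 2 to 5 higher and 0 to 1 lower with 1 library left out. Autophagy genes had 1 lower under each of the 3 scalings, 8 with array weights and 1 to 5 with 1 library left out. Cathepsin inhibitors had 0 lower with a minimum of 5 FPKM, 2 with array weights and 0 to 1 with 1 library left out. Transcripts of the set had 1 lower with no filter, each scaling or no trend, and 15 to 26 higher and 1 to 3 lower with 1 library left out.

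Reversed changes, none of them called, were Cd63 at 0.06 with quantile normalization; Gusb at 0.09, 0.05, 0.02 and 0.04 with equal totals, median-of-ratios scaling, quantile normalization and the most abundant transcript; Man2b1 at 0.05 and Tfe3 at 0.04 with equal totals, and both at 0.01 with median-of-ratios scaling. Cstb was 0.00 with equal totals, Cln3 -0.14 with the most abundant transcript and Mcoln1 -0.03 with array weights. Leaving out 1 library gave -0.01 to 0.05 for Arsa (negative without control replicate 1) and -0.04 to 0.12 for Mitf (negative without control replicate 1 or Msx1 replicate 2). Psap was not called with its most abundant transcript (log2 change 0.61, adjusted p = 0.223).

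With the replicate number as a block, 27 genes were higher and 2 lower, and the 42 calls were those without it; over all genes 2692 were higher and 4055 lower. Deviations of same-numbered libraries correlated at 0.055, 0.226 and 0.037. Control replicates 2 and 3 correlated best with the Msx1 library of their number, and control replicate 1 with Msx1 replicate 3 (0.133). The match did not hold for each replicate, so the numbers were not taken as pairs, but these values do not exclude pairing. FPKM do not give the counts from which counting error is estimated, and depth is known only roughly.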
